A study of Mus musculus with 8 samples.

Results

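Mouse mitochondrial DNA carries 37 genes, and each of the 37 had a row among the 39017 genes of the count table. They were chosen by name alone, as the rows whose Ensembl identifier has a symbol starting with mt- in the GENCODE M21 annotation. They comprise 13 protein-coding genes, 2 ribosomal RNA (rRNA) genes and 22 transfer RNA (tRNA) genes. Of the 13 protein genes, 7 encode subunits of respiratory complex I, 1 of complex III, 3 of complex IV and 2 of complex V. Levels are described below in cells of the mouse cochlear nucleus, the first auditory relay of the hindbrain, at embryonic day E18.5. The question set by the study was what the transcription factors Hoxa2 and Hoxb2, which pattern the hindbrain, do in a subset of these cells.

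The cells came from C57BL/6 embryos and were sorted by fluorescence. The mutant group (4 libraries) carried the Math1::Cre driver and the Rosa tdTomato reporter together with conditional alleles written in the sample titles as Hoxa2+/fl and Hoxb2fl/fl. The wild type group (4 libraries) carried the same driver and reporter, with no conditional allele named in its titles. The design text gives Hoxa2 as fl/fl, so the titles and that text disagree on whether 1 or both Hoxa2 alleles were conditional. Math1, also called Atoh1, drives Cre in the rhombic lip lineage, so recombination is directed to that lineage. Each library was made from 30000 sorted cells of 3 littermates, and every library had its own mother. In sorted bulk RNA, fewer cells of a type and less RNA per cell cannot be told apart.

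Mitochondrial DNA is copied out as long RNAs that run around almost the whole circle from each strand, and the tRNAs lying between the other genes are cut out to release them. The protein genes encode the core, membrane-embedded subunits of the respiratory chain, and the rRNAs and tRNAs serve the ribosomes inside the organelle that translate them. All other subunits of the chain are encoded in the nucleus, so every complex with a mitochondrial subunit is built from both genomes. Neurons depend on this chain for most of their ATP.

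In the annotation 28 of the 37 genes lie on the plus strand of the GRCm38 mitochondrial sequence and 9 on the minus strand, which are mt-Nd6 and 8 tRNA genes. The deposited length equalled the annotated length for 37 genes. There are 9 pairs of neighbours that share bases, 3 of them on opposite strands. Whether strand was kept in the libraries or the counting is not given in the sources used here, so reads of neighbours or of the opposite strand cannot be told apart where genes touch. The sequences that bear on this are given here 5′ to 3′ from the GENCODE M21 transcripts. mt-Ts1, a serine tRNA of the minus strand at chrM:6870-6938, is shown because it had the highest tRNA counts. Its capitals mark the 3 bases whose positions mt-Co1 also covers from the plus strand. mt-Te, the glutamate tRNA of the minus strand at chrM:14071-14139, was next in counts and directly adjoins mt-Nd6. mt-Tl1, a leucine tRNA at chrM:2676-2750 on the plus strand, lies between mt-Rnr2 and mt-Nd1. It had the smallest p of the 20 tRNA genes with enough counts to be tested. mt-Tf, the phenylalanine tRNA at chrM:1-68 on the plus strand, was listed at 0 in 3 libraries.
mt-Ts1: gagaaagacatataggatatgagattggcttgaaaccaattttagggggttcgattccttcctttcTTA
mt-Te: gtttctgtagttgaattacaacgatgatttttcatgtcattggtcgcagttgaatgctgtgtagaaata
mt-Tl1: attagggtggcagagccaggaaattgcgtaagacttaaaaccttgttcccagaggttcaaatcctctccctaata
mt-Tf: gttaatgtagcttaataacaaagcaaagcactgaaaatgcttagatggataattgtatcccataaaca

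Total counts ran from 26299105 to 51118195 in mutant libraries and from 24789043 to 40050010 in wild type libraries. CPM here means the count per library total of 1e6 after TMM scaling, which sets the libraries to a common scale. Hoxb2 had 6.81, 3.82, 3.77 and 5.67 CPM in mutant 1 to 4, against 37.4, 46.6, 37.5 and 38.9 CPM in wild type 5 to 8, with no overlap. Hoxa2 had 19.9, 48.0, 11.1 and 27.8 CPM in mutant 1 to 4, against 30.8, 55.1, 49.2 and 37.7 CPM in wild type 5 to 8, and the groups overlapped. Mutant 1, wild type 5 and wild type 6 stood apart in Xist, at 130 CPM in mutant 1, 278 CPM in wild type 5 and 832 CPM in wild type 6 against 2297 to 3544 CPM in the other libraries. The 9 markers of Atoh1-lineage neurons were detected and their summed level was 2363 to 3303 CPM in mutant and 2538 to 3109 CPM in wild type libraries. Stmn2 held the largest part of that sum, at a mean of 1274 CPM in mutant and 923 CPM in wild type libraries. Stmn2 was at 790 CPM in mutant 1, 719 CPM in wild type 5 and 740 CPM in wild type 6, against 1110 to 1608 CPM in the other libraries. Atoh1 was at 134 CPM in mutant 1, 89.1 CPM in wild type 5 and 154 CPM in wild type 6, against 28.5 to 59.3 CPM in the others. Of the 9, 7 had a log2 fold change below 0 (median -0.28), and Nhlh1 fell to 46.3 ± 6.86 CPM in mutant libraries, against 89.2 ± 5.61 CPM in wild type libraries (SD, n = 4 each, adjusted p in edgeR = 0.00603). Summed markers of radial glia and astrocytes were 181 to 452 CPM in mutant and 316 to 415 CPM in wild type libraries. The oligodendrocyte-lineage sum was 68.9 to 83.9 CPM in mutant and 66.9 to 97.5 CPM in wild type libraries, and the inhibitory-neuron sum was 44.3 to 102 CPM in mutant and 30.9 to 58.1 CPM in wild type libraries. Microglial, endothelial, red blood cell and meningeal sums stayed at or below 18.0 CPM in each library. Csf1r held the largest part of the microglial sum, at a mean of 11.4 CPM in mutant and 10.9 CPM in wild type libraries. C1qa, another microglial marker, was called lower, at 0.203 ± 0.104 CPM in mutant and 2.36 ± 1.19 CPM in wild type libraries (SD, n = 4 each, adjusted p in edgeR = 0.0115). Of the red blood cell markers, Alas2 had means of 5.66 CPM in mutant and 5.63 CPM in wild type libraries. Hbb-bs had 0.156 and 1.02 CPM, and Hba-a1 and Hba-a2 had 0. The sum of 8 immediate early genes, which can rise during tissue dissociation, was 130 to 393 CPM in mutant and 193 to 448 CPM in wild type libraries. It was highest in the libraries that stood apart in Xist. They had 393 CPM in mutant 1, 288 CPM in wild type 5 and 448 CPM in wild type 6, against 130 to 214 CPM in the other libraries. The part of these differences in the results below was not tested.

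The 37 mitochondrial genes together took up 13.7, 13.7, 11.2 and 12.4% of library counts in mutant 1 to 4, against 11.8, 13.4, 12.0 and 10.4% of library counts in wild type 5 to 8. The groups overlapped, with 12.7 ± 1.17% in mutant and 11.9 ± 1.25% in wild type libraries (SD, n = 4 each). Most of this was rRNA, which held 9.06, 8.65, 6.20 and 8.19% of library counts in mutant 1 to 4, against 7.13, 8.52, 7.37 and 6.23% of library counts in wild type 5 to 8. Mutant 3 was the lowest of the mutant libraries, while the other 3 mutant libraries were at or above the upper part of the wild type range. Protein genes held 4.57, 4.98, 5.004 and 4.15% of library counts in mutant 1 to 4, against 4.68, 4.88, 4.60 and 4.12% of library counts in wild type 5 to 8, and these 2 sets of values overlapped almost completely. The 22 tRNA genes held 0.0397, 0.0406, 0.0484 and 0.0312% of library counts in mutant 1 to 4, against 0.0346, 0.0441, 0.0315 and 0.0290% of library counts in wild type 5 to 8. In the plot of class shares the mutant and wild type points interleave in every class.

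**Figure D1:**
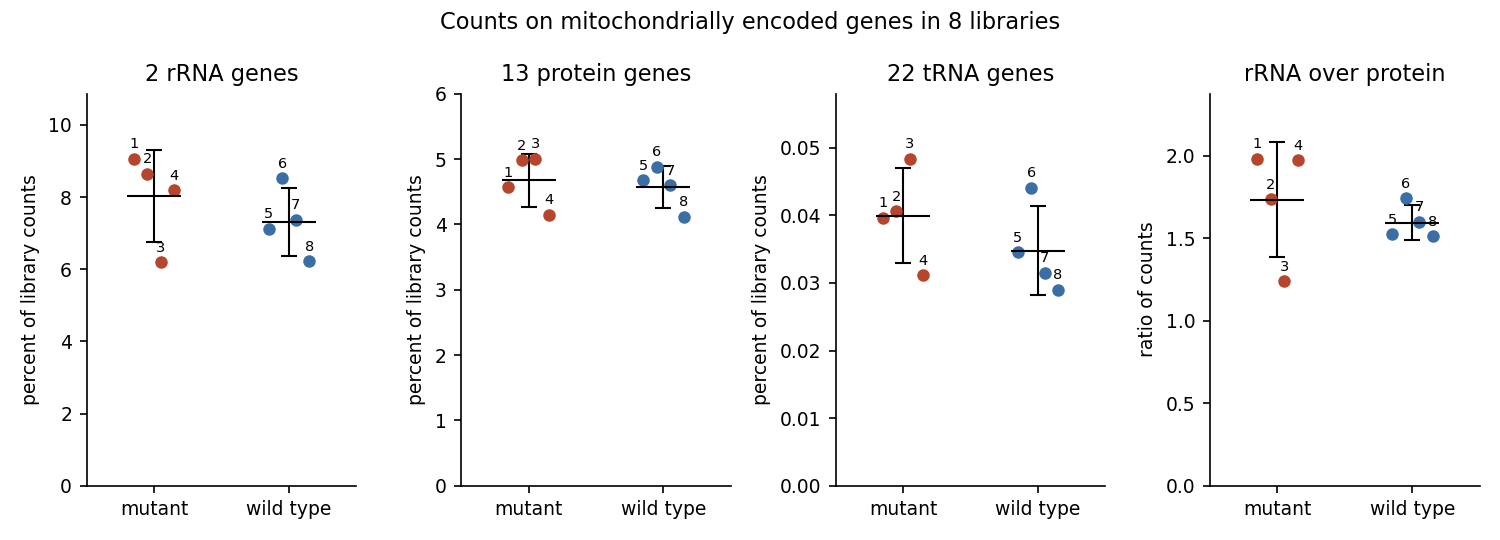
Percent of a library's counts on the rRNA, protein and tRNA genes of the mitochondrial genome, and the ratio of rRNA to protein counts (y axes, starting at 0), in 4 mutant and 4 wild type libraries (x axis). Points are libraries with their heading number, lines are means and bars are SD; mutant 3 has the lowest rRNA share (6.20%) and the highest tRNA share (0.0484%) of the 8 libraries.

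None of the members passed the test for a difference between mutant and wild type. Of the 37 genes, 35 had enough counts to be tested with edgeR's quasi-likelihood test, and 0 were called at a Benjamini-Hochberg adjusted p below 0.05, where 0.359% of the 19494 genes tested were called. Among the 35, 4 had an unadjusted p below 0.05, against a background of 12.5%, and DESeq2 and limma-voom also called 0 (5 and 9 at an unadjusted p below 0.05). The count of 4 became 9 without wild type 6, 10 with mutant 1 and wild type 5 and 6 left out together, 2 without mutant 2 or without wild type 7, 1 without wild type 5 or without wild type 8 and 1 with library totals as the only scaling, and 0 members were called in each of these. The 12.5% belongs to edgeR's fit of all 8 libraries, and such a share is not given for the alternatives. Over all genes 497 were called with DESeq2, 233 with limma-voom, 76 without wild type 6 and 32 without wild type 8. With mutant 1 and wild type 5 and 6 left out together it was 171. The changes in the count of 4 are therefore no result about the members. Adjusted p-values in edgeR with all 8 libraries ran from 0.3025 to 0.975. The log2 fold change of mutant over wild type was above 0 for 22 of the 35 and below 0 for 13, with a median of 0.14, where 48.4% of all genes tested were above 0 and their median was -0.01. The median of the members was 0.06 without mutant 3, 0.08 without wild type 8 and with library totals, 0.26 without wild type 6 and 0.38 with mutant 1 and wild type 5 and 6 left out together. Non-overlapping libraries were seen for 2 members, both higher in mutant libraries, where this held for 6.17% of all genes tested (3.23% with the mutant libraries higher). These are differences without a call, and a p that misses the threshold does not show equal levels. The precision differed by class: the standard error of the log2 fold change was 0.10 to 0.13 for protein genes, 0.13 to 0.18 for rRNA genes and 0.15 to 0.88 for tRNA genes.

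**Figure D2:**
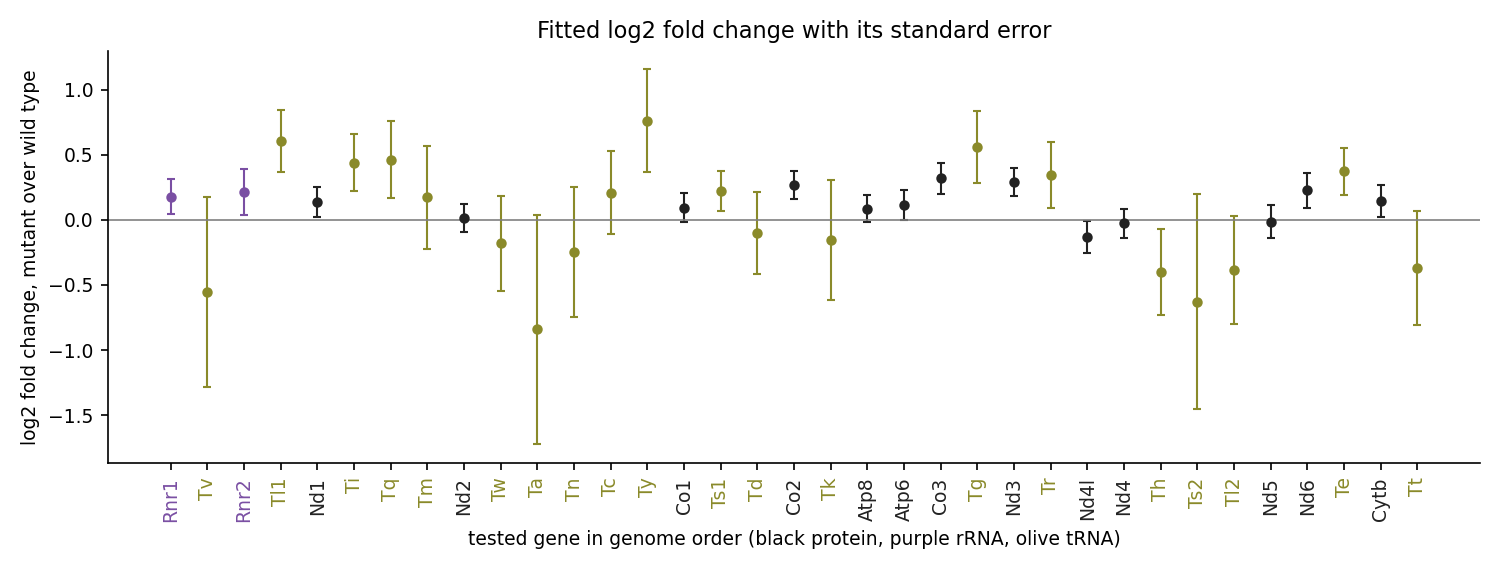
Log2 fold change of mutant over wild type (y axis) for the 35 tested mitochondrial genes in genome order (x axis), from edgeR's quasi-likelihood fit on 4 libraries a group; bars are approximate standard errors. The 13 protein genes lie between -0.13 and 0.32, and the tRNA genes spread from -0.84 to 0.76 with wider bars.

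The rRNA genes were the most abundant members in each library. mt-Rnr1, the small-subunit rRNA, had 39297, 40300.4, 31531 and 38154 CPM in mutant 1 to 4, against 32079, 38034, 32322 and 29634 CPM in wild type 5 to 8. The large-subunit rRNA gene mt-Rnr2 had 50789, 49272, 30005 and 49025 CPM in mutant 1 to 4, against 35798, 44185, 40948 and 33508 CPM in wild type 5 to 8. Mutant 3 lay among the wild type libraries for mt-Rnr1 and below them for mt-Rnr2, and the other 3 mutant libraries lay above the 4 wild type libraries for both genes. For mt-Rnr1 the log2 fold change was 0.18 (SE 0.13, adjusted p in edgeR = 0.604). For mt-Rnr2 it was 0.21 (SE 0.18, adjusted p in edgeR = 0.636), and it was 0.36 without mutant 3 and 0.32 with limma-voom, without a call in either. The number of mt-Rnr2 counts per mt-Rnr1 count was 1.29, 1.22, 0.952 and 1.28 in mutant 1 to 4, against 1.12, 1.16, 1.27 and 1.13 in wild type 5 to 8. Mutant 3 was the one library in which mt-Rnr2 had fewer counts than mt-Rnr1. The ratio of rRNA to protein counts was 1.98, 1.74, 1.24 and 1.97 in mutant 1 to 4, against 1.52, 1.74, 1.60 and 1.51 in wild type 5 to 8, again lowest in mutant 3. Wild type libraries spread less in this ratio, at 1.60 ± 0.107, than mutant libraries at 1.73 ± 0.349 (SD, n = 4 each).

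Complex I, the NADH dehydrogenase that takes electrons from NADH, has 7 mitochondrial subunits, and 0 of the 7 passed the test. Their fold changes lay on both sides of 0, with 4 above, 3 below and a median log2 fold change of 0.01. mt-Nd5, one of the large proton-pumping subunits, had 6460.1, 8128, 5947 and 6368 CPM in mutant 1 to 4, against 6619, 6663, 7395 and 6471 CPM in wild type 5 to 8. The related pump subunit mt-Nd4 had 5197, 6334, 5249.6 and 5665 CPM in mutant 1 to 4, against 5786, 5879.8, 5963 and 5249.7 CPM in wild type 5 to 8. Mutant 2 was highest of the 8 libraries for both genes. Their log2 fold changes were -0.01 for mt-Nd5 (SE 0.13) and -0.03 for mt-Nd4 (SE 0.11), each within 1 standard error of 0. mt-Nd2, the third pump-like subunit, had 2657, 3130.2, 2845 and 2729.9 CPM in mutant 1 to 4, against 2882, 2942, 2846 and 2578 CPM in wild type 5 to 8 and a log2 fold change of 0.01 (SE 0.11), which was -0.05 with library totals and -0.00397 with upper quartile scaling. mt-Nd1, which borders the quinone pocket, had 3511, 3770.5, 3416 and 3215 CPM in mutant 1 to 4, against 3128, 3538, 3171 and 2821 CPM in wild type 5 to 8, with a log2 fold change of 0.14 (SE 0.11, adjusted p in edgeR = 0.635).

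The smaller complex I genes departed from 0 in opposite directions without passing. mt-Nd3, a short subunit next to the quinone pocket, had 147, 157, 173 and 149 CPM in mutant 1 to 4, against 122, 148, 126 and 117 CPM in wild type 5 to 8. Wild type 6 lay just above mutant 1, and the other wild type libraries lay below all mutant libraries. Its log2 fold change was 0.29 (SE 0.11, adjusted p in edgeR = 0.304), with an approximate 95% interval of 0.05 to 0.52. mt-Nd4l had 376, 425, 305 and 420.2 CPM in mutant 1 to 4, against 432, 416, 441 and 383 CPM in wild type 5 to 8, and mutant 3 was lowest. The log2 fold change of mt-Nd4l was -0.13 (SE 0.12, adjusted p in edgeR = 0.670). mt-Nd6 is the only protein gene of the minus strand, and it had 1805, 1775, 1637 and 1385 CPM in mutant 1 to 4, against 1329, 1671, 1433 and 1215 CPM in wild type 5 to 8. Wild type 6 lay within the mutant range for mt-Nd6, the fold change being 0.23 (SE 0.13, adjusted p in edgeR = 0.499) on the log2 scale.

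mt-Cytb, the mitochondrial subunit of complex III, which passes electrons from quinol to cytochrome c, had 7007, 8056, 9086 and 6948 CPM in mutant 1 to 4, against 6999, 7447, 7229 and 6472 CPM in wild type 5 to 8. Mutant 3 stood above every other library and the remaining mutant libraries overlapped wild type. The log2 fold change of mt-Cytb was 0.14 (SE 0.12, adjusted p in edgeR = 0.650).

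Complex IV, cytochrome c oxidase, reduces oxygen to water, and its 3 mitochondrial subunits had the highest median of the complexes, a log2 fold change of 0.27, without a call. Both genes whose libraries did not overlap between groups belong here. They are 2 of the 35 members tested, where 6.17% of all genes tested did not overlap, so this is no trait of the members. mt-Co3, a structural subunit, had 2374, 2649, 3105 and 2359 CPM in mutant 1 to 4, against 2047, 2216, 2051 and 2091 CPM in wild type 5 to 8. The lowest mutant library was above the highest wild type library, and mutant 3 was highest. Its log2 fold change was 0.32 (SE 0.12, adjusted p in edgeR = 0.3025), with an approximate 95% interval of 0.06 to 0.57. mt-Co2, which holds the copper site that receives electrons from cytochrome c, had 1650.4, 1698, 1947 and 1516 CPM in mutant 1 to 4, against 1414, 1498, 1417 and 1333 CPM in wild type 5 to 8. The groups were again separate, with mutant 4 and wild type 6 the closest pair. For mt-Co2 the log2 fold change was 0.27 (SE 0.11, adjusted p in edgeR = 0.352), with an approximate 95% interval of 0.03 to 0.51. mt-Co1, the catalytic subunit that holds the haem and copper centre, had 9966, 10751, 10946 and 9413 CPM in mutant 1 to 4, against 9554, 10267, 9454 and 9223 CPM in wild type 5 to 8. These overlapped, and the log2 fold change of mt-Co1 was 0.09 (SE 0.11, adjusted p in edgeR = 0.744).

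As a share of the protein counts of a library, which does not depend on scaling, mt-Co3 made up 5.22, 5.13, 6.25 and 5.34% of protein counts in mutant 1 to 4, against 4.60, 4.70, 4.48 and 5.01% of protein counts in wild type 5 to 8, and mt-Co2 made up 3.63, 3.29, 3.92 and 3.43% of protein counts in mutant 1 to 4, against 3.17, 3.18, 3.10 and 3.19% of protein counts in wild type 5 to 8. Both were higher in every mutant library than in every wild type library. These are the same counts that were separate between groups as CPM, so the shares are no independent support. As a sum over its 3 genes, complex IV made up 30.8, 29.3, 32.2 and 30.1% of protein counts in mutant 1 to 4, against 29.2, 29.7, 28.2 and 30.3% of protein counts in wild type 5 to 8, and there the groups overlapped. Complex I made up 44.3, 46.0, 39.4 and 45.1% of protein counts in mutant 1 to 4, against 45.6, 45.1, 46.7 and 45.1% of protein counts in wild type 5 to 8. Mutant 3 had the lowest complex I share and the highest complex III and complex IV shares of the 8 libraries.

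Complex V, the ATP synthase, has mt-Atp6, the subunit that lines the proton path, and mt-Atp8, a short membrane subunit. Their reading frames overlap by 43 bases, so reads in that stretch belong to both genes. The mt-Atp8 transcript (chrM:7766-7969, plus strand) is shown for this overlap, with the bases shared with mt-Atp6 in capitals.
mt-Atp8: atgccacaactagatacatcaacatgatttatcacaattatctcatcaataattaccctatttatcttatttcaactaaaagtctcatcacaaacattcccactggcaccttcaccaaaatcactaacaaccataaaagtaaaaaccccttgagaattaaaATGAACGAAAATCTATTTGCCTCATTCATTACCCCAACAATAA
mt-Atp6 had 3984, 4373, 4678 and 3695 CPM in mutant 1 to 4, against 3906, 4126, 3901 and 3519 CPM in wild type 5 to 8. For mt-Atp8 the values were 320.04, 342, 354 and 287 CPM in mutant 1 to 4, against 311, 315, 319 and 282 CPM in wild type 5 to 8. Mutant 4 was the lowest mutant library and wild type 8 the lowest wild type library for both genes, and the groups overlapped. Log2 fold changes were 0.11 (SE 0.12, adjusted p in edgeR = 0.700) for mt-Atp6, and 0.09 (SE 0.10, adjusted p in edgeR = 0.745) for mt-Atp8.

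Of the 22 tRNA genes, which carry amino acids to the mitochondrial ribosome, 20 were tested, 0 were called, 10 had a log2 fold change above 0 and 10 below, and the median was 0.04. Without wild type 6, 15 of the 20 were above 0 with a median of 0.39 and 0 were called. mt-Ts1 and mt-Te, whose sequences are printed above, held 82.2 to 91.3% of all tRNA counts in mutant and 84.2 to 89.6% in wild type libraries. mt-Ts1 had 263, 297, 378 and 230.1 CPM in mutant 1 to 4, against 235, 299, 236 and 230.1 CPM in wild type 5 to 8, or 2.64, 2.77, 3.45 and 2.44% of the mt-Co1 counts in mutant 1 to 4, against 2.46, 2.91, 2.50 and 2.49% of the mt-Co1 counts in wild type 5 to 8. mt-Te had 67.6, 56.0, 60.3 and 42.8 CPM in mutant 1 to 4, against 43.6, 59.2, 39.0 and 33.5 CPM in wild type 5 to 8, or 3.74, 3.16, 3.69 and 3.09% of the mt-Nd6 counts in mutant 1 to 4, against 3.28, 3.54, 2.72 and 2.75% of the mt-Nd6 counts in wild type 5 to 8. In both genes mutant 3 was above the 4 wild type libraries, and wild type 6 was the highest wild type library. Their log2 fold changes were 0.22 (SE 0.15, adjusted p in edgeR = 0.562) for mt-Ts1, and 0.37 (SE 0.18, adjusted p in edgeR = 0.432) for mt-Te.

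The other 20 tRNA genes summed to 1956, 1701, 2162 and 2183 counts in mutant 1 to 4, against 1948, 1727, 1328 and 1206 counts in wild type 5 to 8; most of these genes had few counts. mt-Tl1 was the best covered of these, with 511, 473, 541 and 730 counts in mutant 1 to 4, against 491, 347, 357 and 267 counts in wild type 5 to 8. On the scaled level it had 16.7, 18.6, 10.5 and 19.7 CPM in mutant 1 to 4, against 12.6, 13.5, 10.2 and 6.76 CPM in wild type 5 to 8, and mutant 3 lay within the wild type range. Its log2 fold change was 0.61 (SE 0.24, adjusted p in edgeR = 0.335), with an approximate 95% interval of 0.08 to 1.13, and it was the one tRNA gene with an unadjusted p below 0.05 in that test. The largest positive fold change was that of mt-Ty, the tyrosine tRNA, at 0.76 on the log2 scale (SE 0.39), and the largest negative one was that of mt-Ta, the alanine tRNA, at -0.84 (SE 0.88). Without wild type 6 they were 1.29 for mt-Ty and -0.27 for mt-Ta, and without mutant 3 mt-Ta was at -0.37, in each case without a call. mt-Ta had 23, 17, 0 and 14 counts in mutant 1 to 4, against 26, 41, 25 and 7 counts in wild type 5 to 8. The 0 in mutant 3 and the 41 in wild type 6 span the range, and both groups overlap. mt-Tv, the valine tRNA between the rRNA genes, had 101 counts in wild type 6 and 11 to 42 counts in each of the other libraries.

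Both tRNA genes that the low-count filter left untested lie at the ends of the annotated mitochondrial sequence. Without that filter all 22 tRNA genes were tested, 0 were called and the lowest adjusted p in edgeR was 0.0772. That value was of mt-Tf or mt-Tp, since the adjusted p of the other members stayed at or above 0.116 in every alternative. mt-Tf had 0, 0, 0 and 3 counts in mutant 1 to 4, against 21, 16, 7 and 3 counts in wild type 5 to 8. A count of 0 allows up to 3 counts, or 0.0587 to 0.114 CPM of the total in those 3 mutant libraries. The upper bound of the exact Clopper-Pearson 95% interval was wider there, at 0.121, 0.14 and 0.0722 CPM in mutant 1 to 3. Wild type 5 stood at 0.567 CPM with an exact Clopper-Pearson 95% interval of 0.351 to 0.866 CPM, while wild type 8 had the same count as mutant 4. mt-Tp, the proline tRNA of the minus strand, had 13, 2, 8 and 10 counts in mutant 1 to 4, against 28, 15, 7 and 6 counts in wild type 5 to 8. Intervals and limits of this kind cover counting error only.

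Compared per kilobase of gene length, the level order ran over 4 orders of magnitude and was similar in both groups. mt-Rnr1 was highest, at 39079 ± 4144 CPM per kb in mutant and 34573 ± 3726 CPM per kb in wild type libraries (SD, n = 4 each), followed by mt-Rnr2 at 28301 ± 6243 CPM per kb in mutant and 24406 ± 3064 CPM per kb in wild type libraries. Then came mt-Cytb (6796 ± 884 in mutant, 6151 ± 366 in wild type), mt-Co1 (6647 ± 460 in mutant, 6230 ± 291 in wild type) and mt-Atp6 (6141 ± 634 in mutant, 5673 ± 370.2 in wild type), which did not separate beyond their SD. mt-Nd4, mt-Ts1, mt-Nd5 and mt-Nd1 followed with group means between 3307 and 4234 CPM per kb, and mt-Co3, mt-Nd6, mt-Nd2 and mt-Co2 had group means between 2069 and 3344 CPM per kb. At the lower end of the protein genes were mt-Atp8, mt-Nd4l and, well below them, mt-Nd3 at 449 ± 34.8 CPM per kb in mutant and 368 ± 38.8 CPM per kb in wild type libraries. The means of 2 tRNA genes lay among those of the protein genes, mt-Ts1 near the mean of mt-Nd4 and mt-Te between mt-Nd4l and mt-Nd3. Strand handling is not given, and whether their counts include reads of neighbouring genes or of the opposite strand was not tested. The other tRNA genes had means below 219 CPM per kb in both groups. The plot of levels per kilobase shows these tiers along the genome.

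**Figure D3:**
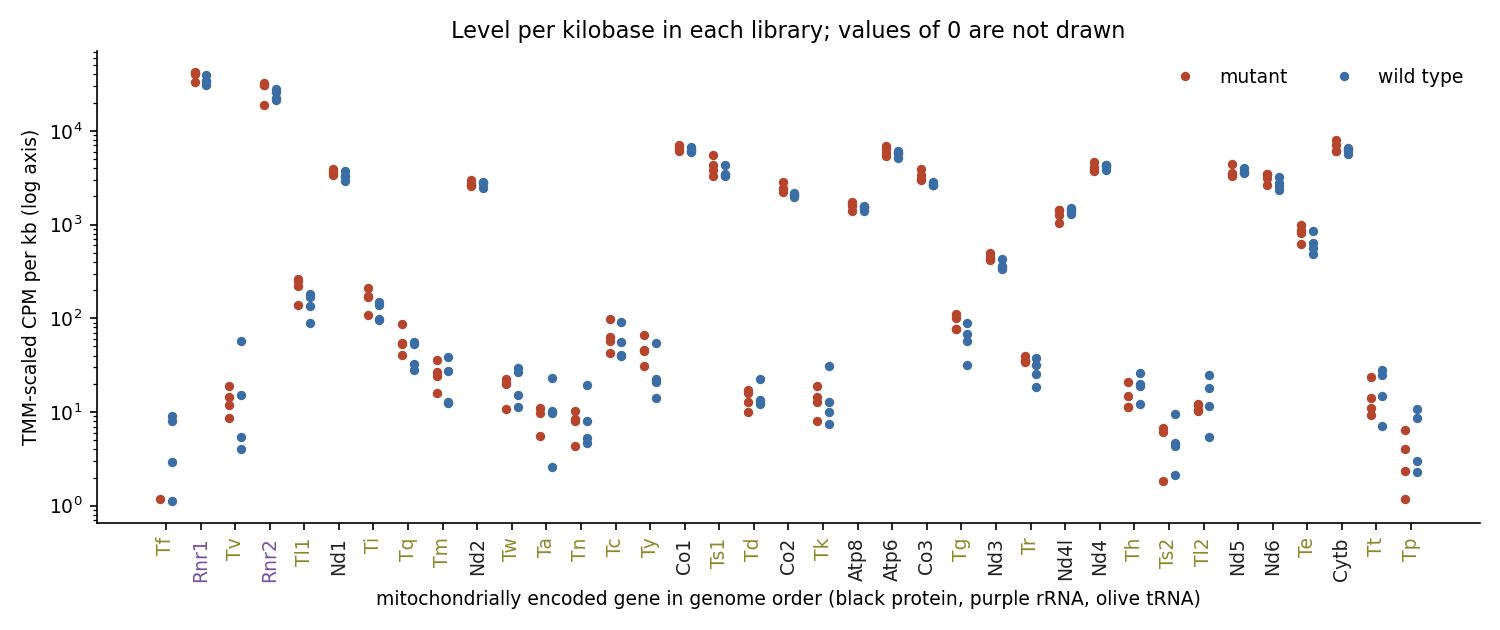
Level of the 37 mitochondrial genes in TMM-scaled CPM per kilobase (y axis, log scale) in genome order (x axis), with 1 point for each mutant library and 1 for each wild type library; values of 0 are not drawn. The rRNA genes lie above all others, most tRNA genes have group means below 219 CPM per kb, and mt-Ts1 and mt-Te lie among the protein genes. Whether counts of mt-Ts1 and mt-Te include reads of neighbouring genes or of the opposite strand was not tested.

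Annotated transcripts of nuclear genes share sequence with 13 of the 37 genes, at 90% identity or more over at least 50 bases. They were found by a blastn search of the GENCODE M21 transcripts, made after the table was read. Copies of mitochondrial DNA in the nuclear genome without an annotated transcript could not be found that way. Whether the other members have such copies was not tested. Of the similar nuclear genes, 10 had a row in the count table and 8 had none. Gm10222 on chromosome 1 is identical to mt-Nd4l over 294 of its 297 bases, which are the capitals of the mt-Nd4l sequence (chrM:9877-10173, plus strand).
mt-Nd4l: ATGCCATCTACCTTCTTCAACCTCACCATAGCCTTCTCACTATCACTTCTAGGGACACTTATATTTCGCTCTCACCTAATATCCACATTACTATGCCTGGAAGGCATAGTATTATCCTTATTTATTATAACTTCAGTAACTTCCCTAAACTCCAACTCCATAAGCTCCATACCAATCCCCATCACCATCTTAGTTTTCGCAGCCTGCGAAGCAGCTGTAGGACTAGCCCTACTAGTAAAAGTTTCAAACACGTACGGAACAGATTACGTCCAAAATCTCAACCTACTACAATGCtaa
mt-Nd4l held 111594 counts over the 8 libraries, and Gm10222 held 112597. The ratio of Gm10222 to mt-Nd4l counts was 1.01, 1.00, 1.03 and 1.000 in mutant 1 to 4, against 0.992, 1.02, 1.01 and 1.01 in wild type 5 to 8. The ratio was close to 1 in each library, so the level of mt-Nd4l given above is uncertain and depends on how the counting placed shared reads. Further copies on chromosome 1 have no row in the count table. Gm28661 matches mt-Co2, Gm28437 matches mt-Co3 and Gm10925 matches mt-Atp6 at 100% identity over nearly the whole gene, Gm28438 matches mt-Nd3 at 99.7%, Gm28439 matches 63.6% of mt-Nd4 at 100% identity and Gm29216 matches 31.3% of mt-Co1 at 99.8%. The levels of these members, and their places in the order per kilobase, carry the same uncertainty. Gm13340 on chromosome 2 aligns to mt-Co1 at 97.6% identity and had 0.167, 0.171, 0.169 and 0.169 times the mt-Co1 counts in mutant 1 to 4, against 0.174, 0.172, 0.168 and 0.171 times the mt-Co1 counts in wild type 5 to 8. Gm13341, also on chromosome 2, aligns to mt-Co2 at 95.9% identity and had 0.238, 0.238, 0.222 and 0.234 times the mt-Co2 counts in mutant 1 to 4, against 0.222, 0.230, 0.239 and 0.232 times the mt-Co2 counts in wild type 5 to 8. Gm13341 itself had 393, 404, 432 and 354 CPM in mutant 1 to 4, against 313, 344, 339 and 309 CPM in wild type 5 to 8, with no overlap between groups, as for mt-Co2. Adding the counts of these 3 copies to their mitochondrial gene left 0 members called and the log2 fold change of mt-Co2 at 0.27. Because these ratios varied little between libraries, the addition could hardly move a fold change, and copies without a row could not be added. Whether shared reads affected mt-Co2 was therefore not tested by it. The rows of Gm13339 (mt-Nd2), Gm11407 and Gm4076 (mt-Nd5), Gm11512 (mt-Co1), Gm11408 (mt-Nd6) and Gm11410 (mt-Cytb) held at most 5.13% of the counts of the gene they resemble. Cep295, a centrosomal protein gene on chromosome 9, holds stretches like mt-Tl1 (93.6% over 62 bases, on the opposite strand) and mt-Tn (91.6% over 71 bases). It had 24724 counts over the 8 libraries, against 3717 for mt-Tl1 and 157 for mt-Tn, and whether reads of one were counted with the other was not tested. The plot of copy ratios shows the 3 main pairs.

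**Figure D4:**
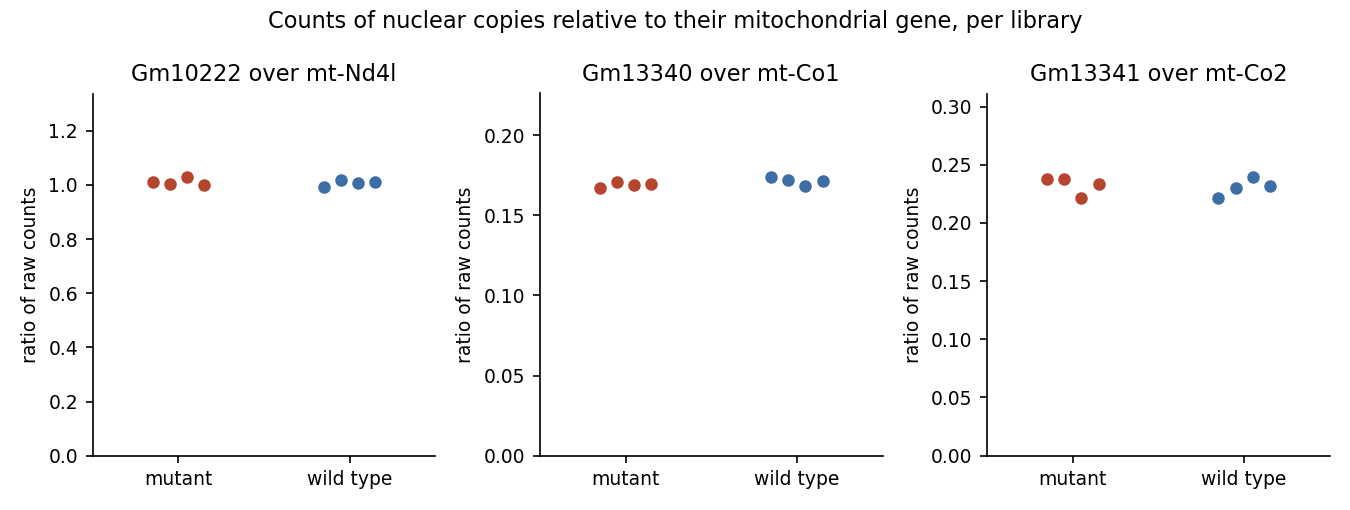
Raw counts of 3 nuclear copies divided by those of the mitochondrial gene they resemble (y axes, starting at 0) in each of 4 mutant and 4 wild type libraries (x axis). The ratio is close to 1 for Gm10222 over mt-Nd4l, between 0.167 and 0.174 for Gm13340 over mt-Co1 and between 0.222 and 0.239 for Gm13341 over mt-Co2.

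The nuclear-encoded partners of these subunits were set beside them in the same fit, from lists of complex members. Of 79 tested nuclear genes of complexes I to V, 0 passed edgeR's quasi-likelihood test with Benjamini-Hochberg adjustment, where 0.359% of all genes tested were called. DESeq2 called 5 of the 79 (Ndufc2, Ndufb8, Ndufa7, Cox6b1 and Usmg5), where it called 497 of all 19494 genes tested. For limma-voom it was 1 of the 79 (Ndufc2), where 233 of all 19494 were called. In edgeR 45 of the 79 (57.0%) had an unadjusted p below 0.05, all with higher levels in mutant libraries, where 7.22% of all genes tested did, and 72 of the 79 had a log2 fold change above 0. The median log2 fold change was 0.01 for the 7 mitochondrial genes of complex I, against 0.35 for its 36 nuclear genes. For complex III it was 0.14 for mt-Cytb and 0.26 over 9 nuclear genes. For complex IV it was 0.27 over the 3 mitochondrial genes and 0.33 over 13 nuclear genes, and for complex V 0.10 over the 2 mitochondrial genes and 0.34 over 17 nuclear genes. The 4 genes of complex II, which has no mitochondrial subunit, had a median of 0.22 and 0 unadjusted p below 0.05. The difference between the mitochondrial and the nuclear subunits was not tested.

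The summed level of the nuclear complex I genes was 1565, 1784, 2316 and 1767 CPM in mutant 1 to 4, against 1375, 1500.2, 1469.8 and 1653 CPM in wild type 5 to 8, and mutant 1 lay within the wild type range. Mutant 3 had the highest sum of the 8 libraries for each of the 5 complexes. Without mutant 3, 20 of 80 tested nuclear respiratory genes had an unadjusted p below 0.05 with a median log2 fold change of 0.20, and without wild type 5 it was 22 of 80 with a median of 0.28. With library totals as the only scaling it was 29 of 79 with a median of 0.27. Without mutant 1, 58 of 79 had an unadjusted p below 0.05 and 7 were called, where 544 of all 20124 genes tested were called. Over all genes 36 of 19923 were called without mutant 3, 36 of 19732 without wild type 5 and 76 of 19494 with library totals. The share of all genes with an unadjusted p below 0.05 is not given for these alternatives. The counts therefore do not tell a change in these genes from a change in all genes. Ndufc2, an accessory subunit of complex I, had 89.7, 101, 123 and 89.4 CPM in mutant 1 to 4, against 59.5, 65.8, 72.2 and 71.6 CPM in wild type 5 to 8. Its groups did not overlap, as for 6.17% of all genes tested, and the log2 fold change was 0.58 (SE 0.12, adjusted p in edgeR = 0.0826). Ndufb8, another accessory subunit, had 60.9, 67.5, 79.2 and 72.5 CPM in mutant 1 to 4, against 38.1, 43.3, 48.0 and 56.3 CPM in wild type 5 to 8 and a log2 fold change of 0.59 (SE 0.13, adjusted p in edgeR = 0.0982). Cox6b1, an accessory subunit of complex IV, had 78.4, 94.6, 119.95 and 97.8 CPM in mutant 1 to 4, against 56.2, 60.4, 67.2 and 79.1 CPM in wild type 5 to 8, with 1 mutant library below the highest wild type library and a log2 fold change of 0.57 (SE 0.15, adjusted p in edgeR = 0.142). Smaller values were those of Uqcrq and Uqcrh of complex III (0.48 and 0.38), Cox6a1 of complex IV (0.42), Usmg5 and Atp5e of complex V (0.51 and 0.49) and Sdhb and Sdhd of complex II (0.28 and 0.25), all on the log2 scale and none past the threshold in edgeR with all 8 libraries. DESeq2 called Usmg5 (adjusted p in DESeq2 = 0.0432), and without mutant 1 Usmg5 (adjusted p in edgeR = 0.0397) and Uqcrq (0.0359) were called.

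Genes that make and process mitochondrial RNA were centred near 0. The counts below stand beside 12.5% of all genes tested with an unadjusted p below 0.05 and 0.359% called in edgeR. Of 18 genes for mitochondrial DNA transcription and replication 0 were called in edgeR, 2 had an unadjusted p below 0.05, both lower in mutant libraries, and the median log2 fold change was 0.06. The 2 were Mterf2, a transcription termination family member, at -0.34 (SE 0.14) and Polg, the mitochondrial DNA polymerase, at -0.29 (SE 0.13). Of 33 genes for RNA processing and stability 0 were called in edgeR and 3 had an unadjusted p below 0.05, with a median of 0.03. The 2 smallest p belonged to Trmt61b, a tRNA and rRNA methyltransferase, at 0.48 (SE 0.17) and Hsd17b10, a subunit of the mitochondrial RNase P, at 0.38 (SE 0.14). The 19 mitochondrial tRNA synthetases, which charge the tRNAs, had a median log2 fold change of -0.11, with 0 called in edgeR and 1 at an unadjusted p below 0.05. That gene was Sars2, the seryl-tRNA synthetase, with 4.19, 3.15, 3.24 and 3.67 CPM in mutant 1 to 4, against 6.09, 5.76, 5.35 and 4.91 CPM in wild type 5 to 8 and a log2 fold change of -0.63 (SE 0.18, adjusted p in edgeR = 0.196). DESeq2 called Sars2 (adjusted p in DESeq2 = 0.0295), where it called 497 of all 19494 genes tested. The plot of fold changes by list shows the nuclear respiratory lists to the right of the other lists.

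**Figure D5:**
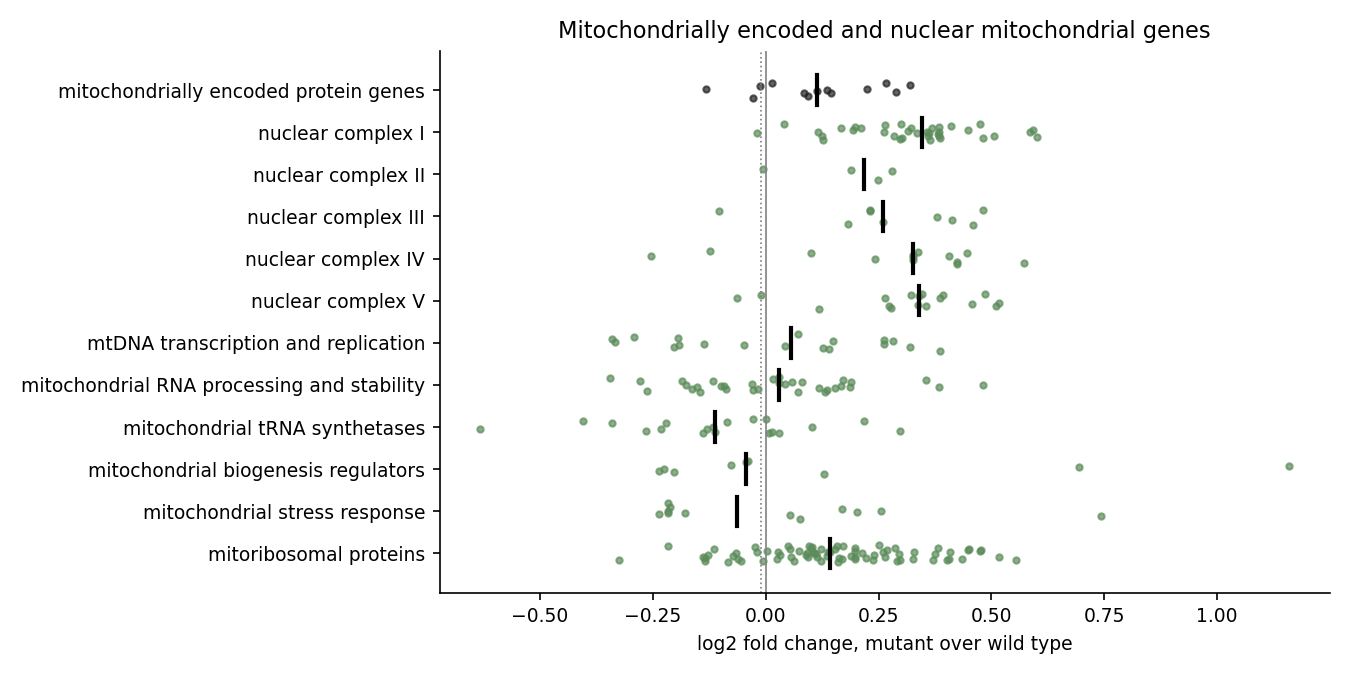
Log2 fold change of mutant over wild type (x axis) for tested genes of each list (rows), from edgeR's quasi-likelihood fit on 4 libraries a group. Points are genes, black ticks are list medians and the dotted line is the median of all genes tested (-0.01); the median is 0.11 for the mitochondrially encoded protein genes, 0.35 for nuclear complex I and -0.11 for the tRNA synthetases.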

How the data were processed

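RNA from 4 mutant and 4 wild type sorted-cell samples was sequenced. The authors deposited 1 table of raw counts, with Ensembl genes as rows and a gene length beside them, per the file headers. The TotalScript kit turned 2 ng of RNA into each library by a mix of poly-A and random priming and 14 PCR cycles, and the 8 libraries shared 3 lanes, per the labels' protocols. The build was mm10 and bcl2fastq 1.8.4 was used, per the submitters' processing notes. Which aligner and counter were used, their strand setting and their handling of reads with several placements are not given in the sources used here. Transfer RNAs are shorter than usual sequencing fragments, and how the library steps acted on them was not tested. Columns are headed by group and numbered 1 to 8 in sequence, so they were assigned to groups only and 0 columns of sample values were left unused. Symbols were matched for 37607 of 39017 rows from GENCODE M21.

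All genes were fitted together with edgeR 4.0.16 (R 4.3.3). After the filterByExpr filter and TMM scaling, the robust quasi-likelihood F test was run without covariates, with Benjamini-Hochberg adjustment over 19494 genes and a threshold of 0.05. Biological variation between libraries was 23.2% (coefficient of variation). Standard errors are approximate, namely the absolute log2 fold change over the root of F, and the intervals of fold changes rest on them. Sums and shares of members were described without a test. Intervals for single counts are exact Clopper-Pearson intervals at 95%, and a count of 0 allows 3 counts; PCR copies are not independent molecules, so both cover counting error only. Nuclear copies were searched among the GENCODE M21 transcripts with blastn 2.17.0, and the genome sequence itself was not searched. DESeq2 1.42.0, limma-voom (limma 3.58.1), other scalings and filters and left-out libraries were the alternatives. The test was tested on simulated data.

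The members and gene lists were chosen with earlier results of these data known. All members, Hoxa2 and Hoxb2 could be named, and from each nuclear list up to 4 genes past the threshold, or else the 2 with the smallest p. The nuclear copies found by the search, other than Gm10222, and the libraries named singly were chosen after their values were seen.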

Additional observations from a re-analysis of the deposited data

Results flagged for a closer look

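Single libraries far from the other 3 of their group were looked for in 96 groups of 4 values, and 7 were found. Chance gives about 1 in 20 for independent groups, but some of these groups share counts. Of the 7, 4 were in wild type 6 and 2 in mutant 3. In wild type 6 the counts of mt-Ts1 enter its level, its ratio to mt-Co1 and the minus-strand share, so those flags are not independent. In wild type 6, mt-Ts1 stood at 299 CPM against 230.1 to 237 CPM in the other wild type libraries, and mt-Td, the aspartate tRNA, at 1.56 CPM against 0.858 to 0.936 CPM. mt-Ts1 counts in that library were 2.91% of the mt-Co1 counts, where the other wild type libraries had 2.46 to 2.50%. The share of mitochondrial counts on minus-strand genes was 1.58% in wild type 6 and 1.41 to 1.44% in the other wild type libraries. In mutant 3, mt-Rnr2 was at 30005 CPM against 49025 to 50789 CPM in the other mutant libraries, and mt-Cytb, the complex III gene, made up 18.3% of the protein counts against 15.4 to 15.7%. The last was mt-Tf in mutant 4, at 0.0810 CPM from 3 counts where the other mutant libraries had 0.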

How the results depend on the processing

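Across 19 alternatives 0 members were called, and 23 of the 35 tested members kept the sign of their log2 fold change in every alternative that gave a value. The other 12 reversed at least once, without a call. Under limma-voom with quality weights mt-Tv was 0.39, mt-Tw 0.0816, mt-Tn 0.16, mt-Tk 0.21, mt-Nd4 0.0248 and mt-Nd5 0.0363; without a low-count filter mt-Nd5 was 0.00158; mt-Nd2 was -0.0460 with library totals and -0.00397 with upper quartile scaling. With mutant 1 and wild type 5 and 6 left out together, mt-Tv was 1.31, mt-Tw 0.39, mt-Tn 0.46, mt-Td 0.0246, mt-Tk 0.42, mt-Nd4 0.0399, mt-Tl2 0.39 and mt-Tt 0.38. Leaving out single libraries gave ranges of -0.91 to 0.71 for mt-Tv, -0.0315 to 0.57 for mt-Tm, -0.0320 to 0.0483 for mt-Nd2, -0.38 to 0.0330 for mt-Tw, -0.47 to 0.35 for mt-Tn, -0.0550 to 0.52 for mt-Tc, -0.21 to 0.13 for mt-Td, -0.39 to 0.42 for mt-Tk, -0.0876 to 0.0105 for mt-Nd4 and -0.11 to 0.0413 for mt-Nd5.

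Over all genes 70 were called, against 214 without a low-count filter, 497 with DESeq2, 233 with limma-voom, 171 without the 3 libraries together and 26 to 544 without single libraries, the highest without mutant 1. Of the nuclear lists 4 genes were called without a low-count filter, 8 with DESeq2, 2 with limma-voom and 0 to 10 without single libraries (10 without mutant 1). The causes were not tested. Differences of class shares and ratios moved by less than the pooled SD of both groups in each alternative, but some changed sign when single libraries were left out. The difference, mutant minus wild type, was 0.106 for the protein share (-0.0436 to 0.282), 0.0920 for the light strand share (-0.0105 to 0.188), 0.559 for the complex III share of protein counts (-0.115 to 0.841) and 0.132 for that of complex V (-0.0977 to 0.271), in percentage points, and 0.137 for the ratio of rRNA to protein (0.0541 to 0.302). Adding nuclear copies, leaving Gm42418 (8.35 to 15.1% of library counts) out of the total, and leaving out the 3 libraries together for the shares were chosen after seeing the data. No paired analysis was possible because the column headings carry running numbers, not the replicate numbers of the titles. For most tRNA genes the low counts limit what could be seen.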

Other observations

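Further nuclear genes with mitochondrial roles also had 0 calls in edgeR's quasi-likelihood test. Over all genes tested 0.359% were called and 12.5% had an unadjusted p below 0.05 (7.22% with higher levels in mutant libraries). Of 77 proteins of the mitochondrial ribosome, 62 had a log2 fold change above 0, 16 had an unadjusted p below 0.05 (15 of them higher in mutant libraries) and the median was 0.14, beside -0.01 for all genes tested. The smallest p belonged to the small-subunit proteins Mrps6, at 42.0 ± 7.79 CPM in mutant and 28.6 ± 3.94 CPM in wild type libraries (SD, n = 4 each), and Mrps24, at 26.2 ± 4.34 CPM in mutant and 18.3 ± 2.24 CPM in wild type libraries. Neither group pair overlapped, where 6.17% of all genes tested did not overlap. DESeq2 called Mrps6 (adjusted p in DESeq2 = 0.0432), where it called 497 of all 19494 genes tested.

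Of 9 regulators of mitochondrial biogenesis, 6 had a log2 fold change below 0 and the median was -0.04. An unadjusted p below 0.05 was seen for 3 of the 9, beside 12.5% of all genes tested. Ppargc1b, a coactivator of mitochondrial gene programmes, was at 2.46 ± 0.635 CPM in mutant and 1.10 ± 0.130 CPM in wild type libraries (SD, n = 4 each), or 1.16 on the log2 scale (SE 0.26, adjusted p in edgeR = 0.0982), without overlap. It was called in DESeq2 (adjusted p in DESeq2 = 0.00385), where 497 of all 19494 genes tested were called. It was also called in limma-voom (adjusted p in limma = 0.0492), where 233 of all 19494 were called. Gabpa, a transcription factor for nuclear respiratory genes, was at 60.9 ± 3.05 CPM in mutant and 71.7 ± 4.14 CPM in wild type libraries, also without overlap (log2 fold change -0.24). Ppargc1b and Gabpa were named for the smallest p of their list, and 6.17% of all genes tested did not overlap. Of 12 tested genes of the mitochondrial stress response, 6 lay above 0 and 6 below, with 1 unadjusted p below 0.05, which was that of Chac1, a glutathione-degrading enzyme, at 5.20 ± 1.02 CPM in mutant and 3.09 ± 0.881 CPM in wild type libraries.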
